A study of Mus musculus with 16 samples.

Results

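Transcripts of 10 genes of the embryonic heart muscle were followed in endothelial cells sorted from mouse embryos: the myosin light chains Myl2, Myl3, Myl4 and Myl7, the cardiac actin Actc1, the troponins Tnnt2 and Tnni1, the myosin heavy chains Myh6 and Myh7, and the natriuretic peptide precursor Nppa. They are 10 of the 22096 gene symbols in the tables and were chosen by name, as markers of cardiomyocytes, with their levels in an earlier comparison of 12/- with +/+ embryos already known. Differences between those groups are therefore given below as a description.

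The cells were CD31-positive cells sorted by flow cytometry from whole embryos at embryonic day 9.5. All groups differ in Notch1, a receptor whose intracellular domain is cut free and acts in the nucleus. The +/+ embryos have both wild-type alleles, and +/- embryos have a wild-type and a deleted allele. The +/vg embryos pair a wild-type allele with vg, a point mutant that releases a less stable intracellular domain. The +/12 embryos pair a wild-type allele with 12, a Notch1 allele that carries the intracellular domain of Notch2 in place of its own. Each of these groups has 3 libraries, and the labels call their endothelial development normal. The 12/- embryos (3 libraries), with endothelial dysfunction, and the 12/vg embryo group (1 library), with partial dysfunction, have no wild-type allele. The labels name no promoter or Cre that limits an allele to a tissue. They do not tell how many embryos went into a library, so p-values reflect differences between libraries that may be technical in part.

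In a muscle sarcomere, myosin heavy chains with their regulatory and essential light chains pull on actin filaments, and the troponins on the actin filament gate that pull by calcium. Cardiomyocytes of the heart tube begin to beat before this stage, with atrial and ventricular forms of the light chains coming to mark the chambers. They do not carry CD31. The endocardium, which does, lines the heart tube just inside the muscle. In bulk RNA from sorted cells, fewer cells of a type and less RNA per cell cannot be told apart.

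The promoters of 4 members are shown because they hold, close to the start of transcription, words that are well known from cardiac muscle genes. Each is 100 bases long, from 134 to 35 bases before the start, from RefSeq on GRCm38.p6, read 5′ to 3′ on the gene's own strand. Capitals mark a CArG box (the site of serum response factor) or a GATA word (AGATAA, its forms with T as the first or G as the last letter, or both changes). The stretches lie at chr9:110763544-110763643 on the plus strand for Myl3, chr11:5898817-5898916 on the minus strand for Myl7, chr2:114052910-114053009 on the minus strand for Actc1 and chr4:148000588-148000687 on the plus strand for Nppa.
Myl3: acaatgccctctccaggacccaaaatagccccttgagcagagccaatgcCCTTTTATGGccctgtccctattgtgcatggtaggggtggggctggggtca
Myl7: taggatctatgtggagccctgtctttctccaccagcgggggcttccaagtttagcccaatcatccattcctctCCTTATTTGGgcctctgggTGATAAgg
Actc1: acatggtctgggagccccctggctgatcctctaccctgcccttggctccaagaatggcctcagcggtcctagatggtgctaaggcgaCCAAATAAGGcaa
Nppa: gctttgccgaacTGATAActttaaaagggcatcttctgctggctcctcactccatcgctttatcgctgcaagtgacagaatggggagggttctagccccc

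On both strands of the 250 bases before the start, a CArG box was found for 3 of the 10 members (Actc1, Myl3 and Myl7) and in 1.47% of 32851 promoters. A GATA word was found for 4 members (Myh6, Myl7, Nppa and Tnnt2) and in 26.5% of promoters. The MEF2 element was found for 0 of 10 members and in 2.92% of promoters. The GGAATG word of TEAD factors was found for 5 members (Myh6, Myh7, Myl3, Myl7 and Tnnt2) and in 12.6% of promoters, and the T-box word AGGTGT for 2 (Nppa and Tnni1) and in 11.8%. These are matches of letters only, and the RefSeq start used for Myl2, which holds none of these words, lies 7762 bases from the GENCODE start of its transcript.

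The 10 genes were measured at low levels beside the genes of the sorted cell type. Levels are scaled FPKM, fragments per kilobase of transcript relative to the mapped fragments, after a median-ratio scaling between libraries, so levels of different genes are per length. Summed over the 10 genes, the level ran from 21.5 to 89.6 with a median of 45.7. The summed level of 10 endothelial markers (among them Pecam1, which encodes CD31 itself, Cdh5 and Kdr) was 845 to 1153 in the same libraries, 10.2 to 41.9 times as high. Every endothelial marker was measured in every library, with Pecam1 at 46.1 to 89.2 and Cdh5 at 149 to 243 scaled FPKM.

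**Figure D1:**
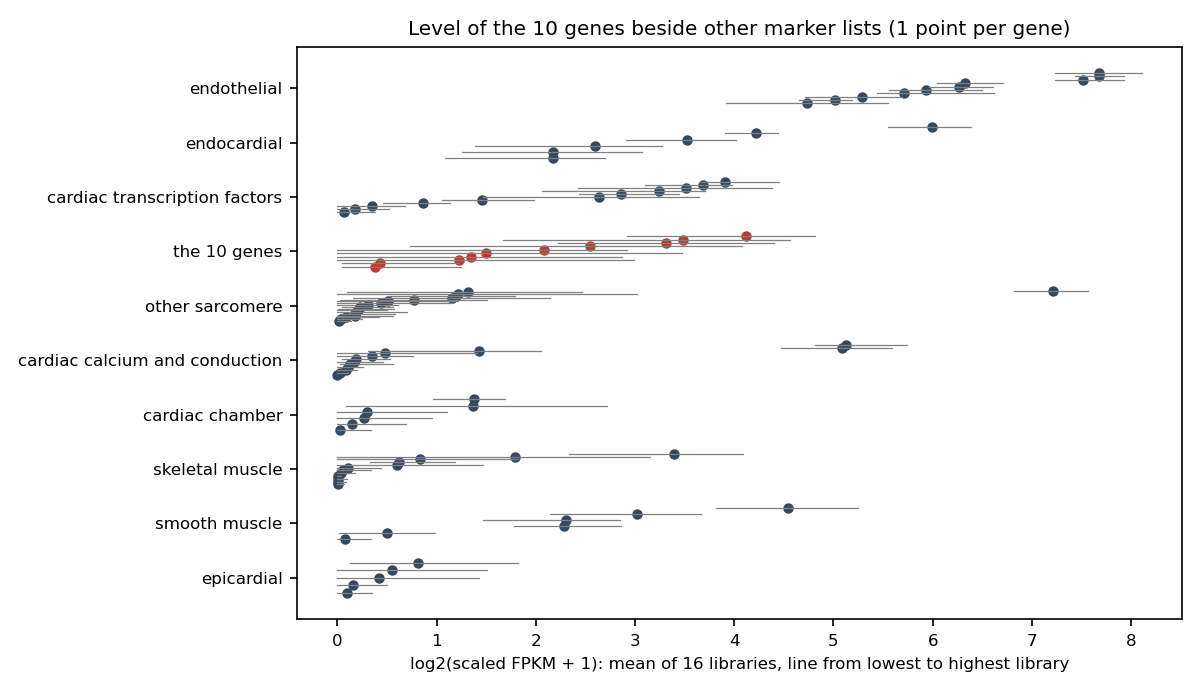
Mean level over the 16 libraries of each gene in 10 of the marker lists, as log2(scaled FPKM + 1) on the horizontal axis, with a line from the lowest to the highest library; the 10 cardiac genes are in red. All endothelial markers lie to the right of the cardiac genes, and most other sarcomere genes lie near 0, apart from Tpm1.

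Many other genes of the differentiated cardiomyocyte were at or near 0. The mean FPKM was below 1 for 13 of 18 further sarcomere genes, 9 of 12 calcium and conduction genes and 4 of 6 chamber genes. Among the calcium and conduction genes, Atp2a2 (34.1), Gja5 (32.8) and Popdc2 (1.68) had higher means. Among the chamber genes, Hey2 (1.60) and Ankrd1 (1.55) did. The means of Atp2a2 and Gja5 were above those of all 10 members. Whether the transcripts of these genes with higher means came from cardiomyocytes was not tested. Nkx2-5, the homeobox factor of heart muscle, was listed at 0 in 10 of 16 libraries and did not exceed 0.297 scaled FPKM. Sln, the atrial calcium pump regulator, was listed at 0 in 16 of 16 libraries, and Bmp10, a factor of the trabeculae, in 14. Titin (Ttn) reached 0.496, alpha-actinin (Actn2) 0.528, the ryanodine receptor Ryr2 0.198, and phospholamban (Pln) 0.441. The 5 further sarcomere genes whose mean reached 1 FPKM were Tnnc1, Tnni3, Tpm1, Myom1 and Des. Tnnc1 reached 4.51 and Tnni3 7.11 in single libraries, and of the 5 only the tropomyosin gene Tpm1, which many cell types express, exceeded a mean of 2, at 148 scaled FPKM. The cardiac factors Gata4 (11.5 to 20.9), Hand2 (4.38 to 19.8) and Tbx20 (3.19 to 12.1) were measured in every library, as were the endocardial markers Nfatc1 (14.0 to 20.7) and Npr3 (6.53 to 15.2).

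Markers of other muscle were mixed. The skeletal muscle factors Myod1, Myf5, Myf6 and Myog did not exceed 0.268 scaled FPKM, and Myh11 of mature smooth muscle did not exceed 0.269. Acta2, the smooth muscle actin that is also made transiently by embryonic heart muscle, ran from 3.43 to 11.7. The skeletal troponin Tnnt1 ran from 4.03 to 16.1 with no library at 0, a level above most of the 10 cardiac genes. Of the 5 epicardial markers, the highest mean was 0.760, for Tcf21.

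By library the summed level of the 10 genes was highest in +/+ replicate 3 (89.6) and +/+ replicate 1 (83.4), and the third +/+ library, replicate 2, had 29.2. Replicate numbers here only name the libraries. The +/- libraries had 21.5, 62.7 and 52.1, the +/vg libraries 46.9, 41.0 and 51.6, and the +/12 libraries 59.5, 35.2 and 41.8. The 12/vg library had 43.4, and the 12/- libraries 46.5, 33.2 and 44.9. The +/+ group thus held both of the highest libraries and the second lowest of the 16, and its range covered those of +/vg, +/12 and 12/-. Group means were 67.4 ± 33.2 (SD, n = 3) in +/+, 45.4 ± 21.4 in +/-, 46.5 ± 5.31 in +/vg, 45.5 ± 12.6 in +/12 and 41.5 ± 7.29 in 12/-.

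**Figure D2:**
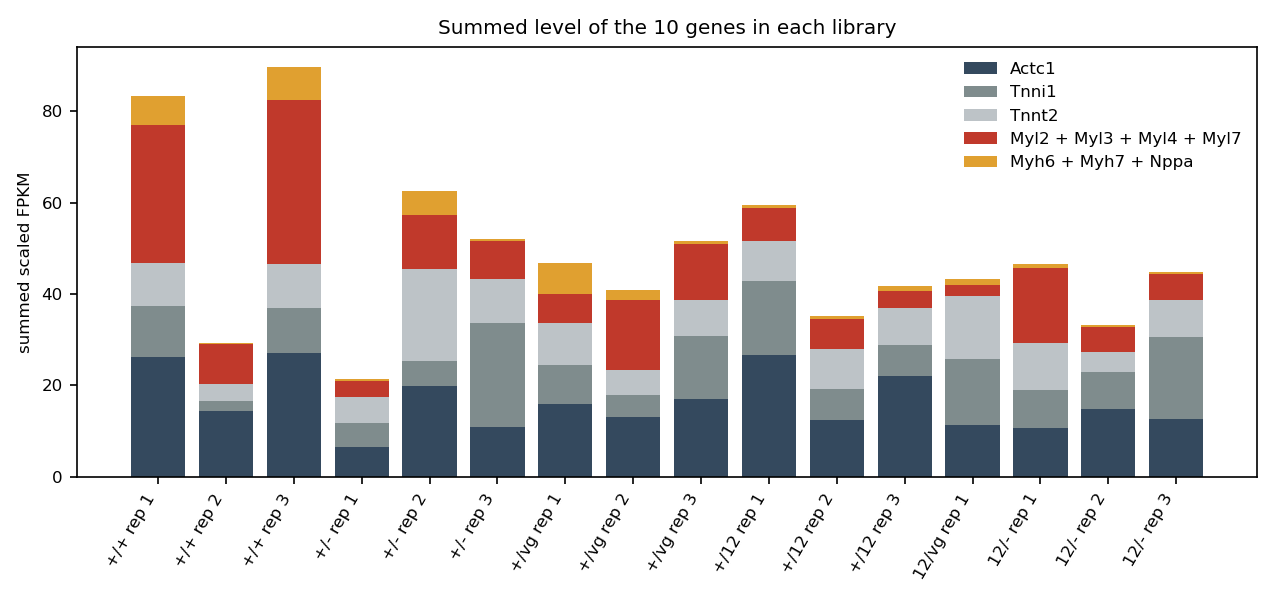
Summed scaled FPKM of the 10 genes (vertical axis) in each of the 16 libraries (horizontal axis), split into Actc1, Tnni1, Tnnt2, the 4 myosin light chains together, and Myh6, Myh7 and Nppa together. The light chains are a large part of the bars of +/+ replicates 1 and 3 and a small part of the 12/vg bar.

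The sum is made of genes that behave differently. Actc1, Tnni1 and Tnnt2 were above 1 FPKM in all 16 libraries and together made 52.0% to 91.2% of it, with a median of 77.4%. The other 7 members summed to 3.81 to 43.0 scaled FPKM, an 11.3-fold range, against 4.17-fold for all 10 genes. With Myl4 left out of them, which was high in 12/- replicate 1, the level ran from 1.49 in 12/- replicate 2 to 37.6 in +/+ replicate 3, a 25.3-fold range. That sum of 6 genes was chosen after their values were seen. The 2 libraries with the highest values of this sum were +/+ replicate 3 and +/+ replicate 1 (31.2), and the next highest was +/vg replicate 2 at 13.0.

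**Figure D3:**
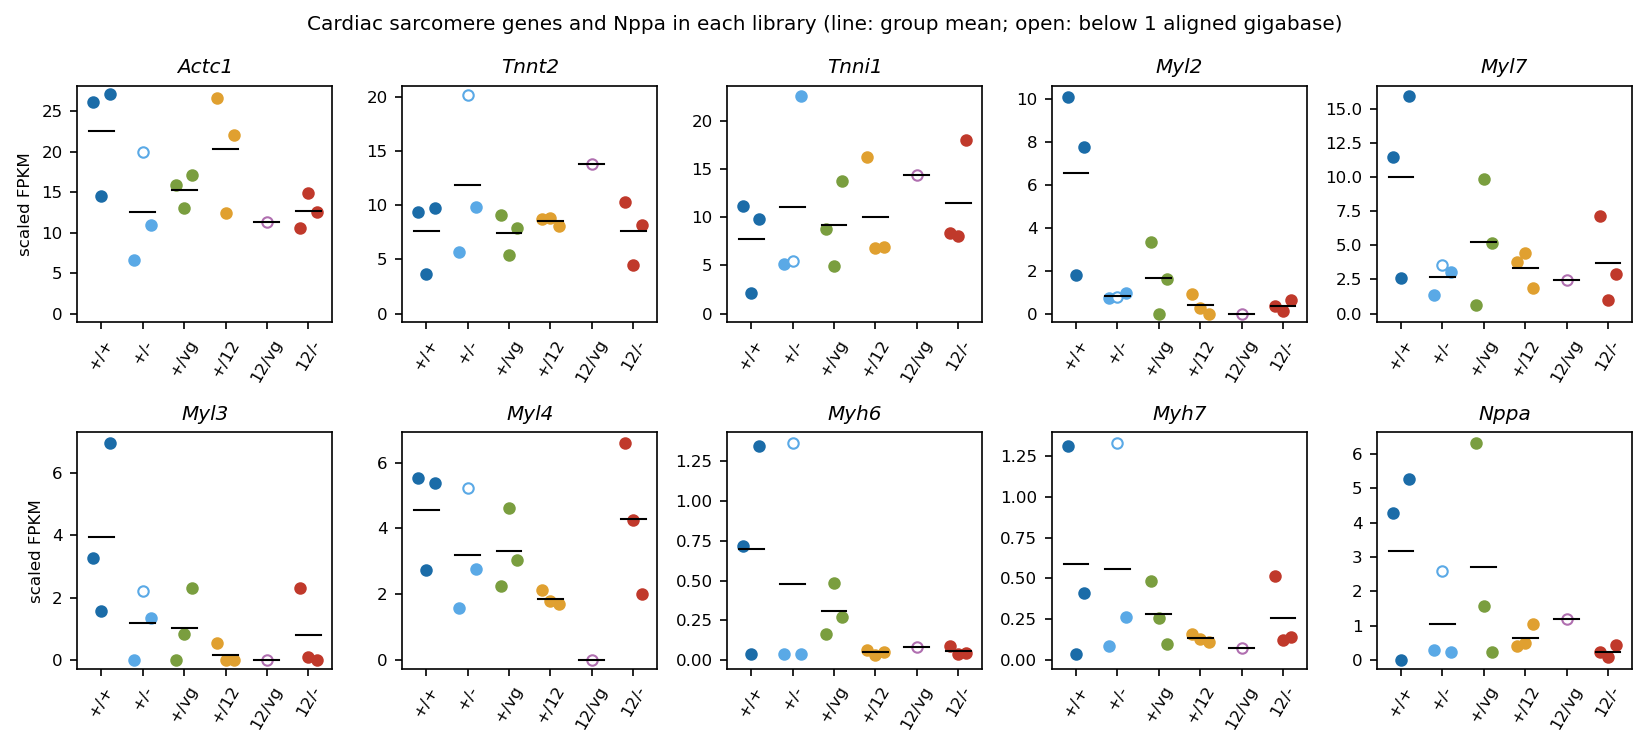
Scaled FPKM of each gene (vertical axes, which differ between panels) in every library, by genotype (horizontal axis); the bar is the group mean and open points are the 2 libraries below 1 gigabase of aligned sequence. Actc1, Tnnt2 and Tnni1 are above 0 in every library, and Myl2, Myl3 and Myl7 are highest in 2 of the 3 +/+ libraries.

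Actc1 is the main sarcomeric actin of the embryonic heart and is also made in embryonic skeletal muscle (chromosome 2, 113873025 to 113878547, mm9). It had the highest mean of the 10, at 16.3 ± 6.27 scaled FPKM (SD, n = 16). By library it was 26.1, 14.5 and 27.1 in +/+, 6.55, 19.9 and 11.0 in +/-, and 15.8, 13.0 and 17.0 in +/vg. In +/12 it was 26.6, 12.5 and 22.0, in 12/vg 11.3, and in 12/- 10.6, 14.9 and 12.6. The ranges of all the groups with replicates overlapped, and +/+ overlapped 12/- only through its replicate 2. Its highest library was 4.13 times its lowest, the smallest such ratio among the members that had no library at 0.

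Tnnt2 encodes cardiac troponin T, which anchors the troponin complex to tropomyosin (chromosome 1, 137732963 to 137748838). It was 9.41, 3.68 and 9.72 scaled FPKM in +/+, 5.67, 20.2 and 9.82 in +/-, and 9.11, 5.40 and 7.94 in +/vg. Its level was 8.70, 8.78 and 8.12 in +/12, 13.8 in 12/vg, and 10.3, 4.46 and 8.13 in 12/-. The highest values were those of +/- replicate 2 and 12/vg, the 2 libraries with the least aligned sequence, and the means of +/+ (7.60 ± 3.40, SD, n = 3) and 12/- (7.63 ± 2.95) were close beside that spread. The files list 10 transcripts of Tnnt2, and 1 of them carries a low-data status, so the gene was left out of the tests here.

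Tnni1 encodes slow skeletal troponin I, the inhibitory subunit that the embryonic heart uses before the cardiac form (chromosome 1, 137695998 to 137707566). Its gene lies 25396 bases from Tnnt2. It was 11.2, 2.19 and 9.84 in +/+, 5.18, 5.48 and 22.6 in +/-, and 8.74, 4.98 and 13.8 in +/vg. The +/12 libraries had 16.2, 6.83 and 6.92, 12/vg had 14.4, and the 12/- libraries 8.39, 8.03 and 18.1. This was the only member of the 7 tested whose mean was higher in 12/- (11.5 ± 5.70, SD, n = 3) than in +/+ (7.73 ± 4.84), and the groups overlapped. Its library pattern was not that of the other members: Pearson's r with the mean of the other tested members was 0.02 over the 16 libraries.

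Myl7 encodes the regulatory light chain that comes to mark the atria and is made through the whole early heart tube (chromosome 11, 5796640 to 5798785). It was 11.5, 2.63 and 15.9 in +/+, 1.36, 3.58 and 3.05 in +/-, and 0.657, 9.83 and 5.21 in +/vg. Embryos with a 12 allele had 3.77, 4.43 and 1.85 (+/12), 2.46 (12/vg) and 7.13, 1.03 and 2.90 (12/-). The values of +/+ replicates 1 and 3 were the highest of the 16, while +/+ replicate 2 lay inside the range of every other group with replicates.

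Myl2 encodes the regulatory light chain of the ventricle (chromosome 5, 122550989 to 122556863). It was 10.1, 1.81 and 7.76 in +/+, 0.713, 0.764 and 0.968 in +/-, and 3.34, 0 and 1.63 in +/vg. In +/12 it was 0.916, 0.268 and 0, in 12/vg it was listed at 0, and in 12/- it was 0.354, 0.114 and 0.618. All +/+ libraries were above all +/-, +/12 and 12/- libraries, and +/vg replicate 1 lay between +/+ replicates 2 and 3. Such low levels rest on little sequence: the 3 +/+ libraries held 9402, 2222 and 8235 aligned bases over this 633 nt transcript, and 12/- replicate 2 held 92.3.

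Myl4 encodes the essential light chain of the embryonic heart and the later atria (chromosome 11, 104411977 to 104448533). It was 5.52, 2.75 and 5.37 in +/+, 1.58, 5.23 and 2.78 in +/-, and 2.26, 4.62 and 3.05 in +/vg. In +/12 it was 2.12, 1.79 and 1.71, in 12/vg it was listed at 0, and in 12/- it was 6.58, 4.26 and 2.02. The highest library was 12/- replicate 1, and +/12 was below +/+ in every library.

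Myl3, the essential light chain of the ventricle and slow skeletal muscle (chromosome 9, 110666185 to 110672298), was listed at 0 in 6 of the 16 libraries. It was 3.28, 1.57 and 6.95 in +/+, 0, 2.20 and 1.35 in +/-, and 0, 0.823 and 2.32 in +/vg. It was 0.539, 0 and 0 in +/12, 0 in 12/vg, and 2.30, 0.0860 and 0 in 12/-. The highest 2 were again +/+ replicates 3 and 1, and every other group with replicates had at least 1 library at 0.

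The heavy chains Myh6 (the alpha chain, with the faster ATPase) and Myh7 (the beta chain) lie 4080 bases apart on chromosome 14, at 55560758 to 55585444 and 55589525 to 55613386. They had the lowest levels of the 10. In their main transcripts 23.0% and 22.6% of all 50-base words occur in both genes, so reads from one can be counted for the other and their separate levels are uncertain. Myh6 ran from 0.0310 to 1.36 scaled FPKM and Myh7 from 0.0347 to 1.33. For Myh6 the values were 0.716, 0.0370 and 1.34 in +/+, 0.0398, 1.36 and 0.0400 in +/-, and 0.166, 0.487 and 0.269 in +/vg. It was 0.0653, 0.0310 and 0.0482 in +/12, 0.0827 in 12/vg, and 0.0861, 0.0366 and 0.0436 in 12/-. Myh7 was 1.31, 0.0347 and 0.413 in +/+, 0.0836, 1.33 and 0.264 in +/-, and 0.487, 0.256 and 0.10 in +/vg. The +/12, 12/vg and 12/- values of Myh7 ran from 0.0744 to 0.513. Both genes were highest in +/- replicate 2, which holds only 0.189 gigabases of aligned sequence, and both were near 0 in +/+ replicate 2.

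Nppa encodes atrial natriuretic peptide, a hormone of the working chamber muscle and no part of the sarcomere (chromosome 4, 147374855 to 147376176). It was 4.29, 0 and 5.27 in +/+, 0.301, 2.61 and 0.250 in +/-, and 6.31, 1.56 and 0.230 in +/vg. Levels were 0.408, 0.487 and 1.06 in +/12, 1.20 in 12/vg, and 0.229, 0.0958 and 0.428 in 12/-. The highest library was +/vg replicate 1, and +/+ ran from 0 to the second highest value.

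Of the 10 genes, 8 had a mean FPKM of at least 1, the level above which genes were tested, and with Tnnt2 left out 7 were tested. The member nearest above this limit was Myl3, with a mean FPKM of 1.35, and the nearest below it was Myh7, at 0.336. Without the +/+ libraries the means of Myl2 (0.751) and Myl3 (0.768) fall below it, so these genes were tested only through the group in which they were high. The tested members varied much more between libraries of a genotype than most genes: their residual SDs on the log2 scale were 0.480 to 0.983, at the 90.9 to 96.6 percentile of 10550 genes, whose median was 0.240.

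In 12/- against +/+, the comparison known when the genes were chosen, limma called 0 of the 7 tested members at an adjusted p under 0.05 (Benjamini-Hochberg over all genes), and 2 had an unadjusted p under 0.05 (Myl2 and Myl3). As both were tested only through the +/+ libraries and this comparison was known, nothing is read from that count. Of all 10550 genes, 0.607% were called and 12.2% had an unadjusted p under 0.05. The mean of Myl2 was 0.362 ± 0.252 scaled FPKM in 12/- and 6.55 ± 4.26 in +/+ (SD, n = 3 each), a difference of -2.27 on the log2(scaled FPKM + 1) scale. On the same scale the differences were -1.54 for Myl3, -1.37 for Nppa, -1.19 for Myl7, -0.74 for Actc1, -0.12 for Myl4 and 0.65 for Tnni1. Over the 7 the median was -1.19, and over all 10 it was -0.68 with 8 lower and 2 higher, beside a median of -0.0024 over all genes tested. Myl2 was the only member whose libraries did not overlap between these groups, where 9.46% of all genes were lower without overlap.

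The choice of library decided whether Myl2 passed in that comparison. Nothing is read from its passing, since Myl2 was tested only through the +/+ libraries and this comparison was known. Myl2 had its lowest +/+ value in replicate 2. Without +/+ replicate 2 its limma adjusted p was 0.0338, and without +/vg replicate 2, which enters only through the shared estimate of the spread, it was 0.0455. With a term for the range of the library number, the difference of Myl2 was -2.53 and its adjusted p 0.538. Under that term Nppa went from -1.37 to -0.06 and Tnni1 turned from 0.65 to -0.78. The term rests on the +/- and +/vg libraries alone, the only groups with libraries in both ranges. Over the alternatives the adjusted p of Myl2 ran from 0.0338 to 0.538, and its difference was negative under each in which it was tested.

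The other groups that the labels call normal were compared with +/+ too. These comparisons use the same 3 +/+ libraries as one another and as the comparison above, so their values are set side by side and their agreement is no separate support. In +/12 against +/+, limma called 0 of 7 members and 0% of all genes, and 3 members (Myl2, Myl3 and Myl4) had an unadjusted p under 0.05, as did 5.37% of all genes. The median difference over the 7 was -0.98. Myl2 averaged 0.394 ± 0.471 in +/12, a difference of -2.27 from +/+ (limma adjusted p = 0.863), and Myl3 averaged 0.180 ± 0.311, a difference of -1.94 (limma adjusted p = 0.898). Those 3 members were lower in +/12 without overlap, as were 5.97% of all genes. Nothing is read from their number, since Myl2 and Myl3 passed the limit on mean FPKM only through the +/+ libraries.

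In +/- against +/+, 0 of 7 members and 0% of all genes were called by limma, and 2 members (Myl2 and Actc1) had an unadjusted p under 0.05, as did 7.51% of all genes. Their median difference was -0.88. Myl2 averaged 0.815 ± 0.135 in +/- (SD, n = 3), a difference of -1.84 (limma adjusted p = 0.524), and was the only member lower without overlap, where 3.77% of all genes were. Actc1 averaged 12.5 ± 6.81 against 22.6 ± 7.00, a difference of -0.88 (limma adjusted p = 0.650). Nothing is read from the counts that include Myl2, since it passed the limit on mean FPKM only through the +/+ libraries.

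In +/vg against +/+, 0 of 7 members and 0% of all genes were called by limma, and of the members Myl2 alone had an unadjusted p under 0.05, as did 7.52% of all genes. Its difference was -1.53 (limma adjusted p = 0.540). Here too nothing is read from Myl2, which was tested only through the +/+ libraries. The median was -0.49, and 0 members were lower without overlap, beside 6.28% of all genes.

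A single +/+ library moved all of these medians. Without +/+ replicate 2, the library with low levels, they became -1.86 in 12/-, -1.79 in +/12, -1.57 in +/- and -1.01 in +/vg. Without +/+ replicate 3 they became -0.67, -0.59, -0.54 and -0.29, here over 6 genes, since Myl3 then falls below the limit on mean FPKM. Leaving out a +/- library moved the +/- median to -1.33 (replicate 2, the shallow one) or -0.60 (replicate 1). The sign stayed negative in all of these. Nothing is read from that, since the comparisons share the +/+ libraries. The medians also include Myl2 and, where tested, Myl3, which passed the limit on mean FPKM only through those libraries.

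The 12/- libraries were also compared with the groups that have 1 wild-type allele. In 12/- against +/12, limma called 0 of 7 members and 0.209% of all genes, with 0 members and 5.3% of all genes at an unadjusted p under 0.05. None of the 10 was lower without overlap, where 6.84% of all genes were. The median difference was 0.0028 over the 7 and 0.0063 over all 10, with 4 lower and 6 higher. Myl4 was at 4.29 ± 2.28 in 12/- and 1.87 ± 0.217 in +/12 (SD, n = 3 each), a difference of 0.78 with the smallest limma adjusted p of the members, 0.950. Myl2 was at 0.362 and 0.394, a difference of 0.0028 ± 0.53 (SE). All libraries of these 2 groups have library numbers in the same range.

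In 12/- against +/-, limma called 0 of 7 members and 0.569% of all genes, with 0 members and 11.7% of all genes at an unadjusted p under 0.05. The median was 0.14 over the 7 tested and -0.30 over all 10, with 6 lower and 4 higher. The smallest limma adjusted p was 0.754, for Myl4. Myl2 was lower without overlap (difference -0.43, limma adjusted p = 0.783), where 6.41% of all genes were. In 12/- against +/vg, limma called 0 of 7 members and 0.445% of all genes, again with 0 at an unadjusted p under 0.05, beside 10% of all genes. The median there was -0.25 over the 7 and -0.25 over all 10, and 8 of the 10 members had a lower mean, by up to 1.19 on the log2 scale for Nppa (limma adjusted p = 0.632). Of the 10 members, the untested Myh6 was lower without overlap, at 0.0554 ± 0.0268 against 0.307 ± 0.164, beside 10.5% of the genes tested. These medians depend on single libraries: without 12/- replicate 1 they were -0.15 against +/12, -0.33 against +/- and -0.74 against +/vg, and without 12/- replicate 2 they were 0.39, 0.02 and -0.0036.

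**Figure D4:**
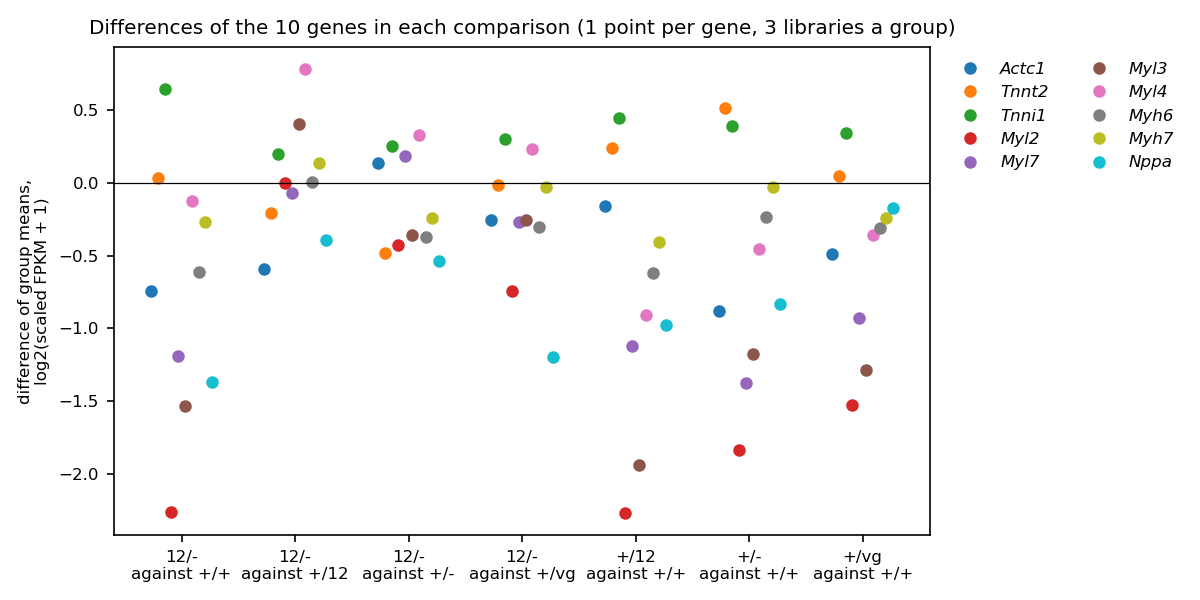
Difference of group means on the log2(scaled FPKM + 1) scale (vertical axis) for each of the 10 genes in the 7 comparisons (horizontal axis), 3 libraries a group. In the 4 comparisons with +/+, which share its 3 libraries, 8 of 10 points lie below 0 and Tnnt2 and Tnni1 lie above it; in 12/- against +/12 the points lie on both sides of 0.

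The libraries also differ in a number in their file names, which the labels do not explain. It is 203 to 248 for 9 of them (the low range) and 371 to 380 for the other 7 (the high range). All +/+ libraries are in the high range, all libraries with a 12 allele in the low range, and +/- and +/vg each have replicates 1 and 2 in the high and replicate 3 in the low range, so range and genotype cannot be told apart for +/+ against 12/- or +/12. Myl2 averaged 0.541 ± 0.546 scaled FPKM in the low range (SD, n = 9) and 3.49 ± 3.91 in the high range (SD, n = 7), and Myh6 averaged 0.0780 ± 0.0743 and 0.593 ± 0.575. Tnni1 went the other way, at 12.8 ± 5.61 in the low and 6.80 ± 3.19 in the high range, and so did the skeletal troponin Tnnt1, at 11.4 ± 3.37 and 7.03 ± 2.71.

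Within the high range, Myl2 was 1.81 to 10.1 in +/+, 0.713 and 0.764 in +/-, and 3.34 and 0 in +/vg. Within the low range, it was 0.968 in the +/- and 1.63 in the +/vg library. It was 0 to 0.916 in +/12, 0 in 12/vg and 0.114 to 0.618 in 12/-. With 1 or 2 libraries in most of these cells, no test was made. The part of the library range in the differences from +/+ was not tested. The term given above cannot decide it, as it rests on the +/- and +/vg libraries alone, among them the shallow +/- replicate 2.

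Among wider lists of heart genes, 2 genes were called. In the 7 comparisons limma called 0 of 5 further sarcomere genes tested, 0 of 2 calcium and conduction genes and 0 of 2 chamber genes. Few genes were called at all. The share of all genes was 0.607% in 12/- against +/+, 0.569% against +/-, 0.445% against +/vg and 0.209% against +/12. It was 0% in +/12, +/- and +/vg against +/+. Nothing is read from counts of 0 on such short lists. Of 7 cardiac transcription factors tested, Hand2, a bHLH factor of the second heart field that is also made in endocardium, fell in 12/- against +/- (-1.38 ± 0.24, SE, limma adjusted p = 0.0208). It was 6.00, 4.38 and 6.27 scaled FPKM in 12/- and 10.6, 19.8 and 19.1 in +/-. The call was lost in 7 of 28 alternatives, with a limma adjusted p of 0.338 when the fit held only these groups, 0.185 with the term for library number, 0.0842 without the 2 shallow libraries and 0.0826 without +/- replicate 2 alone. Without 12/- replicates 1, 2 or 3 it was 0.0877, 0.114 and 0.0667. Of 6 endocardial genes tested, Npr3, a natriuretic peptide clearance receptor, fell in 12/- against +/+ (-0.97 ± 0.15, SE, limma adjusted p = 0.0104), at 6.87, 6.71 and 6.53 against 13.7, 14.3 and 14.5. Its call was lost in 4 of 28 alternatives, with a limma adjusted p of 0.0558 without scaling, 0.0520 without +/+ replicate 3, 0.0552 without 12/- replicate 1 and 0.0537 without 12/- replicate 3.

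Over the 16 libraries Npr3 had r = 0.47 with the mean of the tested cardiac members, and Hand2 had 0.21. The endocardial gene Nfatc1 had r = -0.10. Summed over the 6 endocardial genes, 12/- libraries ran from 79.4 to 93.8 scaled FPKM and +/+ libraries from 107 to 130. The sum ran from 82.1 to 112 in +/vg, 87.1 to 119 in +/- and 95.4 to 117 in +/12, and was 95.6 in 12/vg. It averaged 97.2 in the low and 110 in the high range of library numbers. Hapln1, with a mean FPKM of 62.5, was the largest part of it. The summed endothelial markers ran from 974 to 1153 in 12/- and from 845 to 950 in +/+, and 9 of the 10 had a higher mean in 12/-. Of all 10550 genes tested, 5166 had a higher mean there. Limma called 0 of the 10 markers in this comparison (smallest limma adjusted p = 0.107). Their sum averaged 981 in the low and 913 in the high range of library numbers, which cannot be told apart from genotype here. The summed endothelial markers of the other groups ran from 901 to 999 in +/-, 917 to 959 in +/vg and 868 to 987 in +/12. Whether the share of endocardial cells in the sort differs was not tested.

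Across the 16 libraries the members moved together only in part. Pearson's r of log2(scaled FPKM + 1) over the 45 pairs of members had a median of 0.43 and was positive for 40 pairs. The highest pair was Myl3 with Myl7 (r = 0.78), followed by Myh6 with Myh7 (0.73), which share sequence. Over the 6 pairs of Myl2, Myl3, Myl7 and Myh6 the median was 0.63, and over the 3 pairs of Actc1, Tnnt2 and Tnni1 it was 0.23. These sets were picked by hand with the values known, so nothing is read from the difference between their medians. Nppa, which is in neither set, had r = 0.32 with Myl3 and 0.29 with Myl7, but 0.62 with Myl2 and 0.70 with Myh6. The points are libraries, which share genotype, library number and depth, so no p is given.

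**Figure D5:**
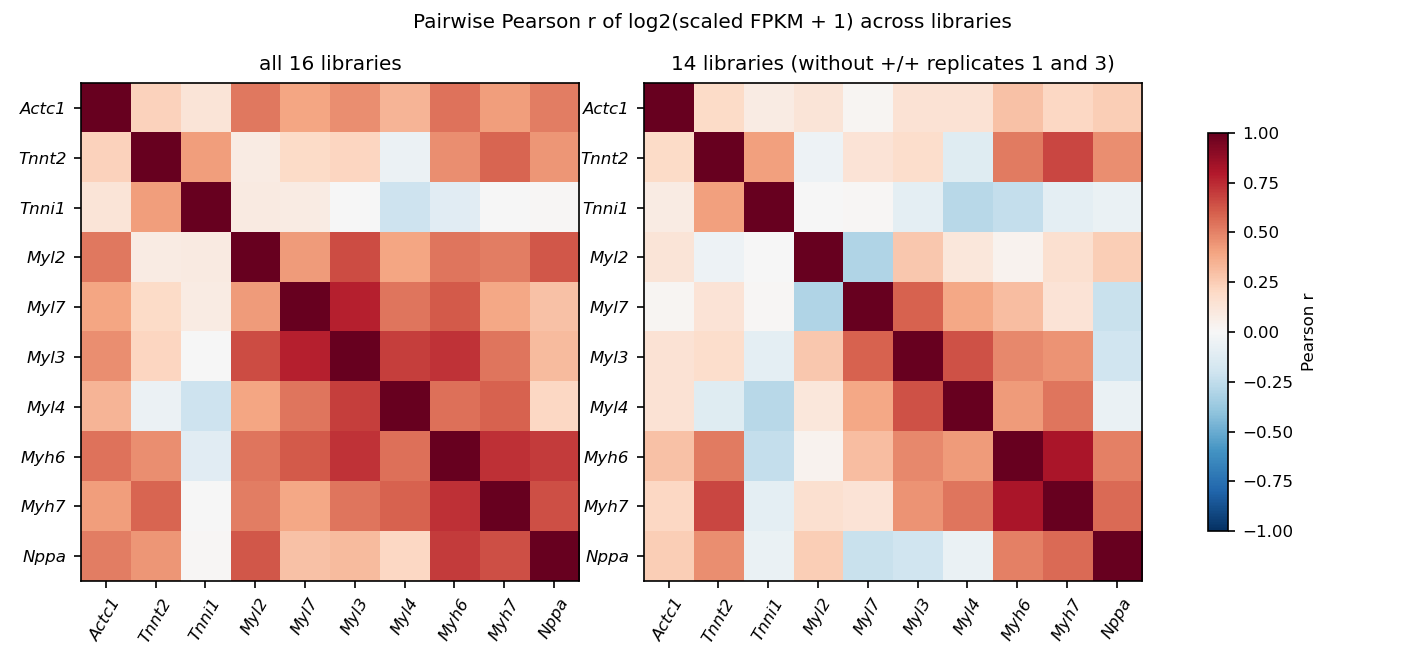
Pearson's r between the 10 genes over all 16 libraries (left) and over 14 libraries, without +/+ replicates 1 and 3 (right); colour runs from -1 (blue) to 1 (red). The block of light chains, heavy chains and Nppa is paler on the right, and the row of Tnni1 is pale on both sides.

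This pattern was weaker without 2 libraries. They were picked by the summed level of the members themselves, so a fall in r is partly built in. Without +/+ replicates 1 and 3, the libraries farthest from the median summed level, the median over the 45 pairs was 0.16 and that over Myl2, Myl3, Myl7 and Myh6 was 0.29. Myl3 with Myl7 kept 0.59, Myl3 with Myl4 went from 0.69 to 0.64, and Myl2 with Myl3 fell from 0.65 to 0.27. Some pairs rose, among them Myh6 with Myh7 (0.73 to 0.82) and Tnnt2 with Myh7 (0.58 to 0.67). +/+ replicates 1 and 3 were the 2 highest libraries for 3 of the 10 members (Myl2, Myl3 and Myl7) and among the 4 highest for 7. Tnnc1, cardiac troponin C, which was no member, had r = 0.65 with the mean of the tested members and was 4.45, 0.0725 and 4.51 in +/+. Tnni3, the adult cardiac troponin I, did not share this, at 0.482, 0.328 and 0.185 in +/+ and 7.11 in +/- replicate 2. Nor did the 5 further sarcomere genes tested, Tnnc1 and Tnni3 among them, share the negative medians of the members against +/+. Their median difference was 0.30 in 12/- (3 higher, 2 lower) and 0.39 in +/12 (4 higher, 1 lower). In +/- it was 0.04 (3 higher, 2 lower) and in +/vg 0.20 (4 higher, 1 lower).

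The non-member genes with the most similar profile over the 16 libraries came from outside the lists of heart genes used here. They were Tmem150a (r = 0.86 with the mean of the tested members), Mir1929 (0.82), Mir496, Mrps7 and Mtmr4 (0.80 each), Mir19b-1 (0.78), Mthfd1 (0.77) and Dnajc1 (0.76). The microRNA genes among them had libraries at 0. With the mean of each genotype taken off, over 15 libraries, they were instead Creb3l1 (0.90), Sytl4, Timm50, Psph, Rnf5, Prrg2, Trim68 and 9930021D14Rik (0.85). The 2 lists have no gene in common, and each is the top of correlations with all genes tested over few libraries.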

How the data were processed

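RNA of the 16 libraries was measured by sequencing of tagmented libraries. The authors deposited 1 table per library with an FPKM value and a coverage value for each of 28107 RefSeq transcripts per the file headers. The submitters' processing notes name TopHat2 2.0.9 and the mm9 build. Deposited coverage divided by FPKM gave 1 constant per library, the aligned gigabases: 1.11 to 1.80 in 14 libraries, 0.189 in +/- replicate 2 and 0.262 in 12/vg. FPKM are not counts, so no count test or counting interval is given. The labels spell wild type in a second way for replicates 2 and 3, taken here as the same genotype.

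FPKM were summed over the transcripts of each of 22096 symbols (Python 3.11.15, pandas 2.3.3) and divided by a median-ratio factor. The 211 symbols with a transcript of a status other than OK were left out, and the 10550 with a mean FPKM of at least 1 were tested on log2(scaled FPKM + 1) with limma 3.58.1 in R 4.3.3 (lmFit, eBayes with trend, two-sided, 16 libraries in 6 groups, 10 residual degrees of freedom), with Benjamini-Hochberg adjustment over all of them and a call at 0.05. A fold on this scale understates the change of low genes. The fit was tested on simulated data.

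Members and lists were chosen with earlier results of these data known. Named are all members, from other lists called genes and up to 4 with the highest means, and the 8 most similar genes by each of 2 measures; other markers named were chosen after their values were seen. Promoters are from RefSeq (GRCm38.p6), and all 10 members had an entry, that of Myl2 far from its GENCODE start. Shared 50-base words were counted in GENCODE M21 transcripts. Alternatives were other scalings, pseudocounts, filters, moderation, weights, a term for the library number, and leaving out libraries.

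The summed levels of the lists were, over the 16 libraries: further sarcomere genes 116 to 202 scaled FPKM, calcium and conduction 52.5 to 98.1, chamber 1.31 to 8.91, cardiac transcription factors 51.3 to 78.9, endocardial 79.4 to 130, epicardial 0.467 to 3.57, skeletal muscle 6.92 to 20.2, smooth muscle 26.5 to 52.7, erythroid 23.2 to 327, mesenchymal 13.3 to 27.0, neural 0.266 to 3.06 and epithelial 4.29 to 61.2.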

Additional observations from a re-analysis of the deposited data

How the results depend on the processing

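Of the 28 alternatives per comparison, the number of members called by limma stayed at 0 in 6 comparisons. In 12/- against +/+ it ran from 0 to 1 on leaving out single libraries. It was 1 (Myl2) without +/+ replicate 2 and without +/vg replicate 2. Nothing is read from this, since Myl2 was tested only through the +/+ libraries. The median difference of the tested members, on leaving out each library in turn, ran from -1.86 to -0.67 in 12/- against +/+, from -1.79 to -0.59 in +/12 against +/+, from -1.57 to -0.54 in +/- against +/+ and from -1.01 to -0.29 in +/vg against +/+. It ran from -0.21 to 0.39 in 12/- against +/12, from -0.33 to 0.16 in 12/- against +/- and from -0.74 to -0.0036 in 12/- against +/vg. With a mean FPKM of at least 5, which leaves only Actc1 and Tnni1, the median was -0.0483 in 12/- against +/+ and 0.15 in +/12 against +/+. Under other scalings the median summed level was 45.0 to 46.1 scaled FPKM. The correlations without 2 libraries were added after seeing the data. Their medians were 0.16 over all pairs and 0.29 over the hand-picked set of Myl2, Myl3, Myl7 and Myh6. No paired analysis was possible because the labels carry no replicate numbers and libraries were numbered in accession order. Depth limits the members near 0 most: in libraries above 1 gigabase, a level of 1 FPKM of Myl2 stands for at least 703 aligned bases.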
